A study of Saccharomyces cerevisiae with 18 samples.

Results

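The comparison described here sets budding yeast (Saccharomyces cerevisiae) of the strain fes1ΔL, which by its label lacks the long (L) isoform of Fes1, against the wild type (WT). Its members are the libraries whose labels give the strain fes1ΔL or WT and growth at 25 °C with no heat shock, 3 of each, or 6 of the 18 samples of the series. The fes1ΔL libraries came from strain CAY1256 (genotype fes1-deltaL) and the WT libraries from strain CAY1015. Cells of every strain used were in log phase in YPD, a rich medium with glucose, at 25 °C, and poly(A)-selected RNA was sequenced. At the same temperature the series holds strain CAY1290 (fes1ΔS, short isoform lost) and strain CAY1221 (labelled fes1Δ, gene deleted), with 3 libraries each, which served here to show where fes1ΔL differs from them and to estimate the spread between libraries. Each group is 1 named strain, so the fes1 allele and any other difference between the strains cannot be told apart. The 3 libraries of a strain are separate RNA isolations by the series' design text, and no source says whether these came from separate cultures. The p-values therefore measure the spread between isolations, which may be technical.

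Fes1 is a nucleotide exchange factor: it makes Hsp70 chaperones let go of ADP and so of the protein they hold. The FES1 transcript is spliced in alternative ways, giving a short cytosolic protein, Fes1S, and a long form, Fes1L, which is directed to the nucleus. Hsp70 also holds back Hsf1, the transcription factor that switches on chaperone genes, and the RNA levels of Hsf1 targets are a common readout of the state of the Hsp70 system.

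The 6 libraries had similar depth, with total counts of 8999115, 9022031 and 9700170 in fes1ΔL and 9321066, 8660676 and 7994723 in WT. Of 7130 genes in the table, 5719 had enough counts to be tested, and of the other 1411 genes, 432 had 0 counts in the 6 libraries. Levels are given as CPM, a gene's counts scaled by the library's total and a TMM factor, and are therefore relative: a shift of total mRNA per cell would not be seen. The markers of MATa cells (MFA1, MFA2, STE2, STE6, BAR1 and AGA2) were present in all 6 libraries, at 48.5 CPM or above. Of the MATα markers, MF(ALPHA)1 had 2 to 9 counts a library and STE3 about 2 CPM, whereas SAG1 stood at 53.6 to 60.2 CPM in fes1ΔL and 50.7 to 63.7 CPM in WT. In the libraries labelled fes1Δ, whose label gives the gene as deleted, FES1 stood at 157, 151 and 168 CPM. That is within or near its range in WT (150 to 165 CPM). Counts per gene do not show whether FES1 is intact there, and 18 of 19 Hsf1 targets were called higher in these libraries than in WT. What sets the FES1 counts was not tested, so nothing below takes a direction from that label.

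The fes1ΔL libraries lay about as far from WT as libraries of the same strain lay from each other. Over the 5098 genes with a mean of at least 10 CPM, the SD of the log2 ratio between a fes1ΔL and a WT library had a median of 0.162 over the 9 pairs (range 0.139 to 0.192). Within fes1ΔL it was 0.153 (0.117 to 0.158), and within WT it was 0.180 (0.143 to 0.190). Between fes1ΔL and fes1ΔS it was 0.250 (0.235 to 0.258), above every value within either strain. Of the 5719 genes, 276 were called between fes1ΔL and fes1ΔS (4.83%), and 544 between fes1ΔL and the libraries labelled fes1Δ (9.51%, with 5.11% higher and 4.41% lower in fes1ΔL).

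Against WT, 4 genes changed in fes1ΔL, which is 0.0699% of the 5719 genes tested, with 2 higher (0.035%) and 2 lower (0.035%). A gene counts as changed here where edgeR's quasi-likelihood test gave a Benjamini-Hochberg adjusted p under 0.05. Without adjustment, 232 genes (4.06%) had a p under 0.05. The median size of the log2 fold change was 0.06, and 95% of genes lay between -0.25 and 0.22. A point estimate of at least 2-fold was found for 11 genes. The libraries did not overlap between the strains for 642 genes (11.2%), with fes1ΔL above WT for 285 (4.98%) and below WT for 357 (6.24%).

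What stayed the same can be given as intervals. For 4356 genes (76.2%), the whole 95% interval of the change lay between a fall of 20% and a rise of 25%, called the 25% margin below. The interval lay within 1.5-fold for 5215 genes (91.2%) and within 2-fold for 5552 genes (97.1%). Equivalence tests, adjusted over all genes, gave 4551, 5311 and 5610 genes at those margins. The outer bound of the interval, the largest change in either direction that it still holds, was 1.17-fold for the median gene and 1.75-fold at the 95th percentile. A gene with a median error would have had to differ by 1.32-fold to be called.

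How small a change could be bounded depended on a gene's level. The bounds rest on the fit over 12 libraries, so the spread within fes1ΔS and the libraries labelled fes1Δ enters them too. The 151 genes at 1000 CPM or more had a median bound of 1.12-fold, and 100% of them lay within 1.5-fold. For the 1662 genes from 100 to 1000 CPM the median bound was 1.14-fold, with 99.2% within 1.5-fold, and for the 3285 genes from 10 to 100 CPM it was 1.18-fold, with 98.1% within 1.5-fold. Below 10 CPM the bounds opened up. The 586 genes from 1 to 10 CPM had a median bound of 1.62-fold, with 33.3% within 1.5-fold and 80.4% within 2-fold. Of the 35 tested genes under 1 CPM, 5.71% lay within 2-fold, and a gene there needed a median difference of 6.11-fold to be called. The 5 narrowest intervals of all belonged to FOL2, MSS116, SQT1, GNT1 and SSE1, each with bounds of 1.08-fold to 1.13-fold.

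**Figure D1:**
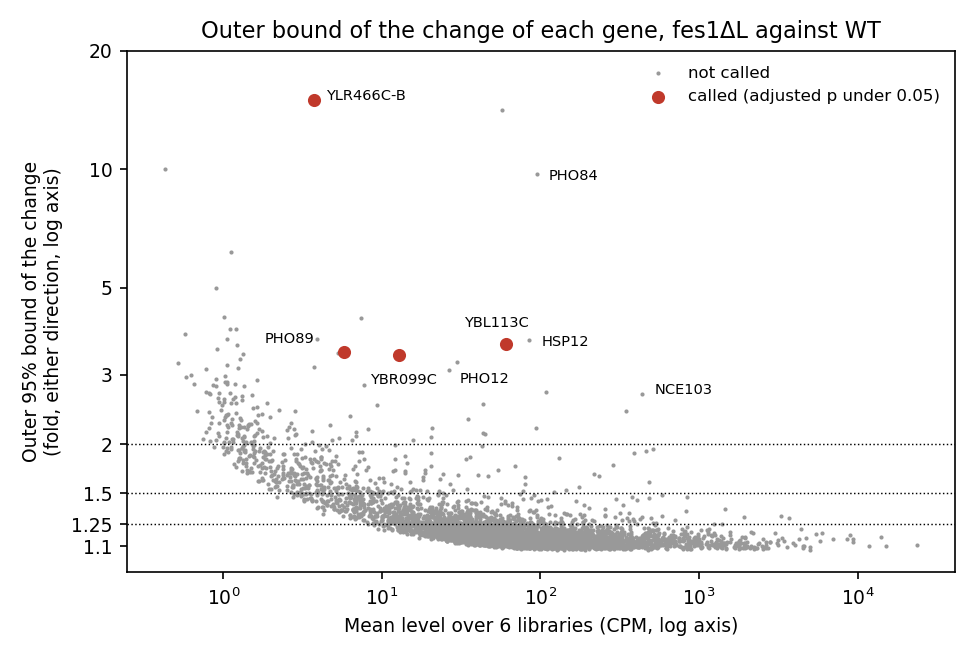
Each point is 1 of the tested genes, with its mean level over the 6 libraries in CPM (log axis) against the outer 95% bound of its change between fes1ΔL and WT as a fold in either direction (log axis). Dotted lines mark the 25% margin, 1.5-fold and 2-fold, and the 4 called genes are red. Most genes above 10 CPM sit under the 1.5-fold line. In the fit over 12 libraries drawn here, PHO84 (bound 9.75-fold), HSP12 and NCE103 stand above it at high levels.

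Of the 167 genes that could not be bounded within 2-fold, 148 had a mean under 10 CPM and 19 were at or above it. The 19 include the called genes YBL113C and YBR099C, the phosphate genes PHO84 and PHO12, several open reading frames of Ty retrotransposons, and FLP1 and REP2 of the yeast's native plasmid. These intervals come from the fit over 12 libraries. In a fit of the 6 fes1ΔL and WT libraries alone, FLP1 (-0.57 to -0.26) and REP2 (-0.73 to -0.42) lay within 2-fold. PHO84 (-1.71 to -1.40) and PHO12 (-1.18 to -0.79) did not. HSP12, which encodes a small membrane-protecting stress protein, had 147, 48.1 and 31.1 CPM in fes1ΔL, against 174, 47.3 and 64.03 CPM in WT. In each strain replicate 1 was the highest library, and the interval of the log2 fold change ran from -1.88 to 1.18. NCE103, the carbonic anhydrase gene, was likewise highest in replicate 1 of both strains, with 719, 293 and 261 CPM in fes1ΔL and 865, 193 and 302 CPM in WT (log2 fold change -0.10, 95% interval -1.42 to 1.22). YGR038C-B, a Ty open reading frame named after its values were seen, had the widest interval of these, -3.82 to 3.34, with 143, 11.9 and 3.94 CPM in fes1ΔL and 31.6, 121 and 34.1 CPM in WT. For these 3 genes the interval holds changes of more than 2-fold in both directions, as it does in the fit of the 6 libraries alone.

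FES1 itself differed little at the gene level. It had 150, 144 and 144 CPM in fes1ΔL, against 165, 158 and 150 CPM in WT. All 3 fes1ΔL libraries lay below the WT libraries, but by less than the test could call: the log2 fold change was -0.11 (SE 0.06, 95% interval -0.25 to 0.02, adjusted p = 0.984), so a fall of more than 1.19-fold lies outside the interval. Counts per gene do not separate the short from the long transcript, so this value does not check that the L isoform was lost. In fes1ΔS the same gene stood at 1526, 1399 and 1377 CPM, and fes1ΔL was lower by a log2 fold change of -3.30 (95% interval -3.43 to -3.17, adjusted p = 1.06e-17).

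The genes around FES1 on chromosome II differed little, with 1 exception. EXO84, an exocyst subunit gene, had a log2 fold change of 0.06 (95% interval -0.07 to 0.19) between fes1ΔL and WT. SIF2, a subunit gene of the Set3 histone deacetylase complex, had 0.00 (-0.16 to 0.15), and YMC2, a mitochondrial carrier gene, had 0.00 (-0.15 to 0.15). These bounds are at most 1.14-fold. MMS4, a subunit gene of a DNA structure-specific nuclease and the neighbour of FES1 on the opposite strand, had 25.0, 33.3 and 27.6 CPM in fes1ΔL and 25.1, 25.5 and 25.6 CPM in WT. The libraries overlapped, and its interval was -0.05 to 0.40.

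The exception was YBR099C, which rose in fes1ΔL to 17.1, 21.1 and 18.3 CPM, against 9.0, 5.41 and 6.49 CPM in WT. The groups did not overlap, and the log2 fold change was 1.42 (SE 0.16, 95% interval 1.09 to 1.76, adjusted p = 6.40e-05). Its number falls between YBR098W and YBR100W, which RefSeq's R64 annotation both gives to MMS4, and its name places it on the strand of FES1, opposite to MMS4. No source used here says whether counting took strand into account, so reads of YBR099C, MMS4 and FES1 that run across each other cannot be told apart. Across the strains YBR099C stood at 367 to 431 CPM in fes1ΔS and 58.4 to 66.9 CPM in the libraries labelled fes1Δ. The level in fes1ΔL was lower than both, by log2 fold changes of -4.38 (adjusted p = 1.41e-15) and -1.73 (adjusted p = 2.40e-09). RefSeq's table gives no entry for YBR099C.

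YBL113C, which RefSeq annotates as a helicase-like protein within a telomeric Y' element at the left end of chromosome II, had 88.0, 88.8 and 96.1 CPM in fes1ΔL, against 24.4, 28.7 and 36.9 CPM in WT. It rose by 1.61 on the log2 scale (SE 0.11, 95% interval 1.37 to 1.85, adjusted p = 6.96e-07). Its level in fes1ΔS was 44.5 to 53.6 CPM, and in the libraries labelled fes1Δ 43.1 to 51.5 CPM. The 3 fes1ΔL libraries were above all 9 others, and fes1ΔL was higher than each of these strains (log2 fold changes 0.91 and 0.94, adjusted p = 2.58e-05 and 1.55e-05).

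YLR466C-B moved the other way. It had 7, 9 and 5 counts in fes1ΔL (0.754, 0.953 and 0.506 CPM), against 62, 65 and 53 counts in WT (6.49, 7.32 and 6.37 CPM). It fell by 3.20 on the log2 scale (SE 0.34, 95% interval -3.90 to -2.49, adjusted p = 6.96e-07), and the 3 fes1ΔL libraries were below all 9 others. Against fes1ΔS, at 5.26 to 7.64 CPM, the log2 fold change was -3.11 (adjusted p = 7.73e-08). By its name it lies on the right arm of chromosome XII, and RefSeq's table gives no entry for it. Genes of Y' elements exist in near-identical copies, so which copy a read came from is uncertain.

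Of the 24 genes of the list of genes near chromosome ends, 18 were tested, and the called members were YBL113C (higher) and YLR466C-B (lower), where 0.035% of all genes were called in each direction. The list was chosen with earlier results of these data known, so its share of calls is no test of genes near chromosome ends. The median log2 fold change of the 18 was 0.04, against 0.00 over all genes tested, and 9 of the 18 could be bounded within 2-fold. COS1, of the subtelomeric COS family, had 54.8, 48.7 and 54.6 CPM in fes1ΔL and 43.3, 41.1 and 37.0 CPM in WT. The groups did not overlap, but the gene was not called (log2 fold change 0.38, 95% interval 0.20 to 0.56, adjusted p = 0.226). YRF1-5, a Y' helicase gene with too few counts to be tested, had 0, 4 and 173 counts in fes1ΔL and 2, 2 and 0 counts in WT, so its counts came almost wholly from 1 library. Genes of telomeric silencing differed little: all 10 lay within the 25% margin, with SIR4 the highest at 0.14 (0.01 to 0.27) and TLC1, the telomerase RNA gene, the lowest at -0.02 (-0.15 to 0.11).

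**Figure D2:**
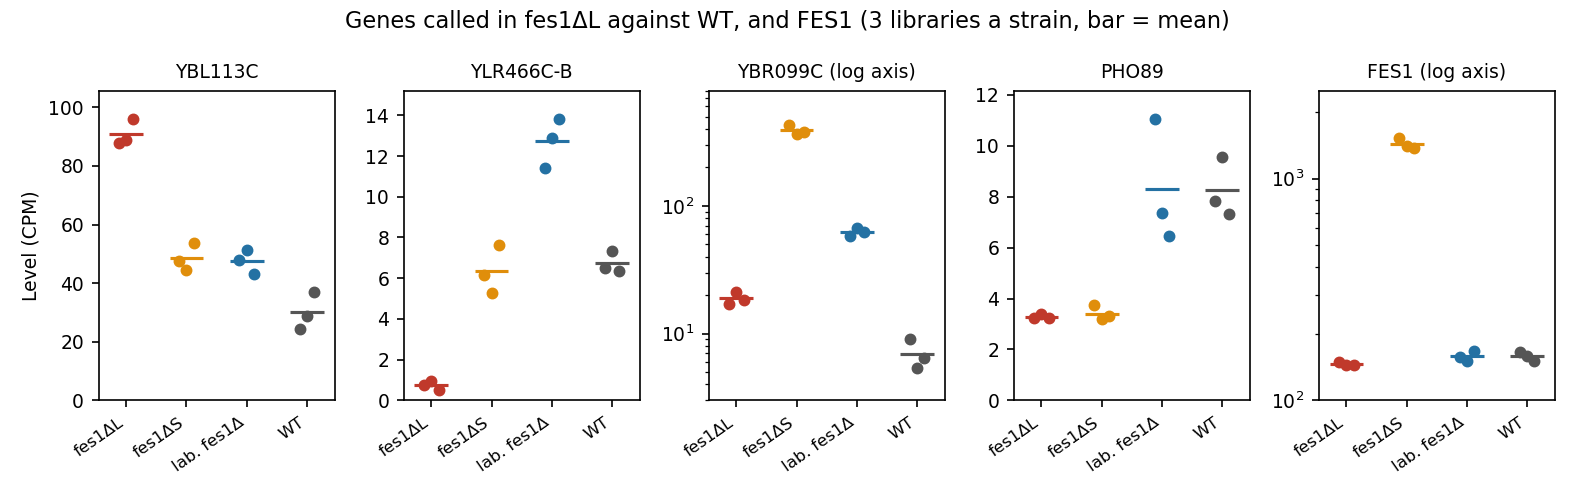
Level in CPM of the 4 genes called between fes1ΔL and WT, and of FES1, in each library of fes1ΔL, fes1ΔS, the libraries labelled fes1Δ and WT. Points are libraries, bars are means over 3, and YBR099C and FES1 are on log axes. For YBL113C the fes1ΔL libraries (88.0 to 96.1 CPM) sit above all others, for YLR466C-B (0.506 to 0.953 CPM) below all others, and PHO89 is at like levels in fes1ΔL and fes1ΔS.

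Of the genes of phosphate supply, 1 fell in fes1ΔL and several others lay below WT in every library without passing the test. Yeast senses phosphate through the kinase pair Pho80 and Pho85 and the inhibitor Pho81. When phosphate is scarce, the factor Pho4 turns on high-affinity transporters (PHO84 and PHO89), secreted acid phosphatases (PHO5, PHO11 and PHO12) and the VTC genes, which store phosphate as polyphosphate. Of the 24 tested genes of the list, 1 was called lower (0.035% of all genes were) and 0 were called higher. An unadjusted p under 0.05 was found for 6 of them, and for 4.06% of all genes. The median log2 fold change was -0.13, against 0.00 over all genes. For 10 of the 24, all fes1ΔL libraries were below all WT libraries, as they were for 6.24% of all genes, and for 0 of the 24 were they above. This list too was chosen with earlier results of these data known, so its shares are no test of it.

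Among the transporters, PHO89, the sodium-coupled one, fell in fes1ΔL to 3.23, 3.39 and 3.24 CPM, against 7.85, 9.57 and 7.33 CPM in WT. The log2 fold change was -1.33 (SE 0.21, 95% interval -1.78 to -0.88, adjusted p = 0.00653). The call was lost when single libraries were left out: the adjusted p was 0.0536 without fes1ΔL replicate 2, 0.0683 without fes1ΔL replicate 3 and 0.0599 without WT replicate 2. PHO84, the proton-coupled transporter, had 46.9, 48.5 and 48.7 CPM in fes1ΔL, against 125.6, 152 and 147 CPM in WT. The groups were far apart and tight, yet in the fit over 12 libraries it was not called (log2 fold change -1.55, 95% interval -3.29 to 0.18, adjusted p = 0.984). The libraries of the other strains spread widely: PHO84 had 52.7, 39.4 and 23.1 CPM in fes1ΔS and 295, 42.9 and 34.9 CPM in the libraries labelled fes1Δ. In a fit of the 6 fes1ΔL and WT libraries alone, it was called, with an interval of -1.71 to -1.40 (adjusted p = 4.15e-08). Without the 3 libraries labelled fes1Δ, but with fes1ΔS, the adjusted p was 0.144.

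The low-affinity transporter genes PHO87, PHO90 and PHO91 had log2 fold changes of 0.02, 0.06 and 0.08, each bounded within 1.19-fold. Of the acid phosphatase genes, PHO12 had 19.4, 17.9 and 16.3 CPM in fes1ΔL and 34.0, 38.1 and 34.1 CPM in WT. PHO11 had 9.37, 7.52 and 11.0 CPM in fes1ΔL, against 13.9, 14.5 and 16.6 CPM in WT. Both were lower in every fes1ΔL library than in any WT library, and neither was called (PHO12 -0.99, 95% interval -1.62 to -0.35, adjusted p = 0.984, and PHO11 -0.68, -0.99 to -0.38, adjusted p = 0.152). These genes are near-identical copies, so the share of reads each holds is uncertain. PHO5 stood at 19.2, 16.2 and 17.1 CPM in fes1ΔL and 21.0, 22.5 and 26.4 CPM in WT (-0.41, -0.82 to -0.01, adjusted p = 0.984). PHO3, a phosphatase gene that low phosphate does not turn on, had -0.02 (-0.19 to 0.14).

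VTC3, of the polyphosphate polymerase complex, had 120, 108 and 109.3 CPM in fes1ΔL and 146, 159 and 145 CPM in WT. VTC1 and VTC4, of the same complex, had log2 fold changes of -0.20 (95% interval -0.34 to -0.06) and -0.17 (-0.36 to 0.03), and VTC2 had 0.06 (-0.12 to 0.23). None of the 4 was called. Of the genes of phosphate sensing, PHO81, PHO80 and PHO85 had log2 fold changes of 0.05, 0.04 and -0.08, each bounded within 1.19-fold. In the fit of the 6 libraries alone, 4 of the 24 phosphate genes were called lower, PHO84, PHO89, PHO12 (adjusted p = 9.49e-05) and VTC3 (adjusted p = 0.00627), where 8 of 5677 genes were called lower in all (0.141%). PHO12 and VTC3 were also called when replicate 1 of the libraries labelled fes1Δ was left out (adjusted p = 7.52e-06 and 0.00575).

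Set against fes1ΔS, 0 of the 24 phosphate genes were called in fes1ΔL, where 4.83% of all genes were. An unadjusted p under 0.05 was found for 1 of them, and for 885 of all 5719 genes. PHO89 had 3.73, 3.18 and 3.33 CPM in fes1ΔS, and the log2 fold change of fes1ΔL against it was -0.06 (95% interval -0.58 to 0.45). For PHO11 that difference was 0.24 (-0.10 to 0.58) and for PHO12 it was 0.58 (-0.16 to 1.31). These intervals are wide, so a p that misses the threshold does not show that the strains are alike here.

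**Figure D3:**
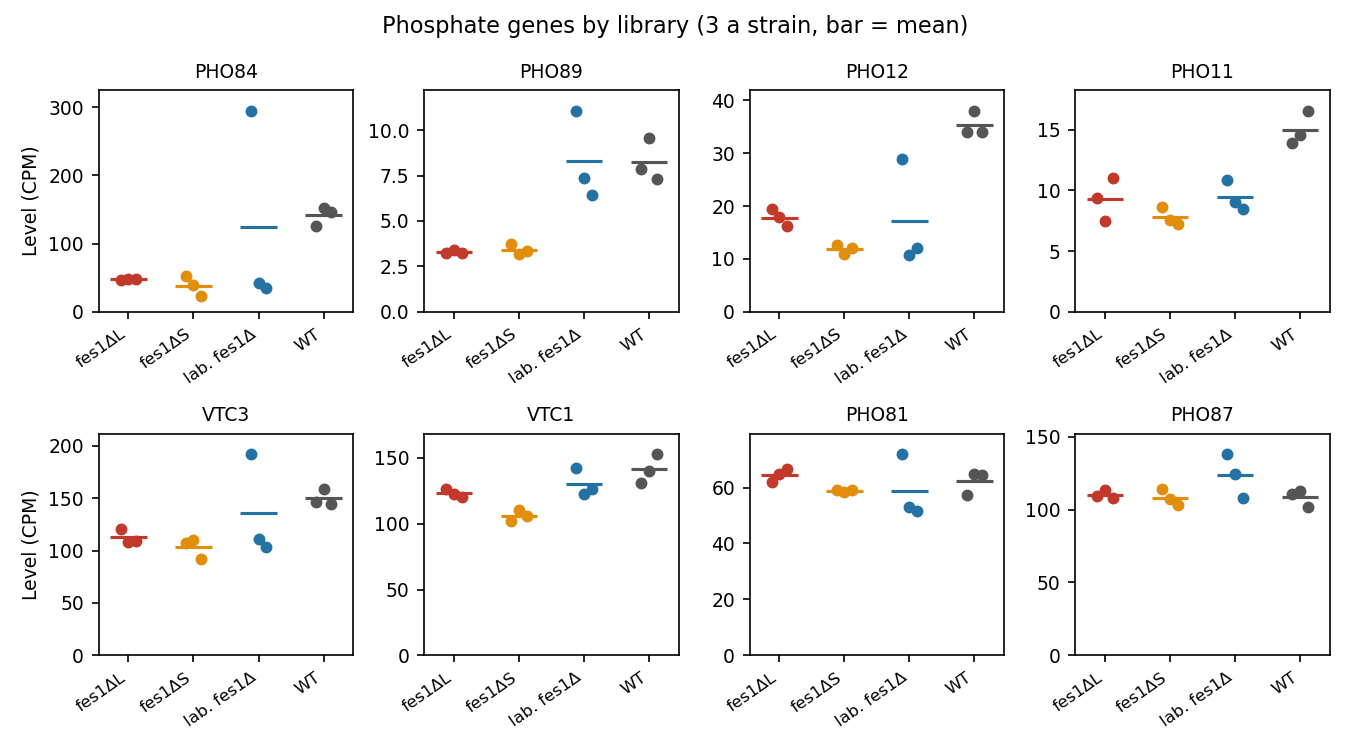
Level in CPM of 8 phosphate genes in each library of fes1ΔL, fes1ΔS, the libraries labelled fes1Δ and WT. Points are libraries and bars are means over 3. PHO84, PHO89, PHO12, PHO11, VTC3 and VTC1 are lower in every fes1ΔL library than in any WT library, PHO81 and PHO87 overlap, and 1 library labelled fes1Δ stands apart at 295 CPM of PHO84.

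REP2, REP1 and FLP1 of the 2-micron plasmid, a circular DNA that most laboratory yeasts carry in many copies, showed a like pattern. These genes were chosen after their values were seen. REP2, which helps share the plasmid between daughter cells, had 271, 305 and 255 CPM in fes1ΔL, against 434, 384 and 421 CPM in WT. REP1, its partner, had 382, 429 and 392.5 CPM in fes1ΔL and 540, 502 and 542 CPM in WT. FLP1, the recombinase gene, had 36.9, 39.7 and 35.1 CPM in fes1ΔL and 51.7, 49.4 and 48.1 CPM in WT. All 3, chosen for this, were lower in every fes1ΔL library than in any WT library, as were 6.24% of all genes, at log2 fold changes of -0.40 to -0.58, and in the fit of 12 libraries none was called (adjusted p = 0.984 each). In the fit of the 6 libraries, REP2, REP1 and FLP1 were called (adjusted p = 0.00158, 0.00934 and 0.0254). Replicate 3 of the libraries labelled fes1Δ stood apart, with 724 CPM of REP2 against 311 and 311 CPM in its other replicates. The fall was not particular to fes1ΔL: fes1ΔS against WT had log2 fold changes of -0.41 for FLP1 and -0.49 for REP2, neither called. Between fes1ΔL and fes1ΔS they were -0.01 (95% interval -0.71 to 0.69) and -0.09 (-0.80 to 0.62), which are wide intervals. Fewer plasmid copies and less RNA per copy cannot be told apart in these data.

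Targets of Hsf1 differed little between fes1ΔL and WT. Of 19 targets, 0 were called and 0 had an unadjusted p under 0.05. Over all genes tested, 0.0699% were called and 4.06% had such a p, and these shares stand beside every list below. The log2 fold changes ran from -0.13 (HSP42) to 0.07 (BTN2) with a median of -0.06, which became 0.02 without WT replicate 1. The 95% interval lay within the 25% margin for 18 of the 19 and within 1.5-fold for all 19, with the widest bound, 1.44-fold, for HSP42, a small heat shock protein gene. Their summed level was 16355, 15557 and 15889 CPM in fes1ΔL and 17097, 15872 and 15332 CPM in WT.

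SSA4, the inducible cytosolic Hsp70 gene, had 90.1, 79.7 and 79.1 CPM in fes1ΔL and 92.4, 84.6 and 88.3 CPM in WT, which overlap. Its log2 fold change was -0.09 (95% interval -0.26 to 0.08), and the outer bound 1.20-fold. HSP104, the disaggregase gene, had 543, 514 and 531 CPM in fes1ΔL and 575, 495 and 548 CPM in WT (-0.03, -0.15 to 0.10). HSP82, the inducible Hsp90 gene, had 733, 666 and 659 CPM in fes1ΔL and 818, 660 and 674 CPM in WT (-0.07, -0.21 to 0.08). In each case the strains overlapped. BTN2 and CUR1, which sort misfolded proteins, had 0.07 (-0.11 to 0.25) and -0.08 (-0.23 to 0.07).

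Against fes1ΔS, all 19 Hsf1 targets were lower in fes1ΔL, where 2.76% of all genes were. The median log2 fold change was -1.38, and the summed level in fes1ΔS was 45811, 45058 and 44674 CPM. SSA4 had 1011, 892 and 951 CPM in fes1ΔS, and fes1ΔL was lower by 3.52 on the log2 scale (adjusted p = 1.18e-16). The smallest of the 19 differences was that of MBF1, a coactivator gene, at -0.94 (95% interval -1.06 to -0.83). FES1 is among the 19 and was engineered in these strains.

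**Figure D4:**
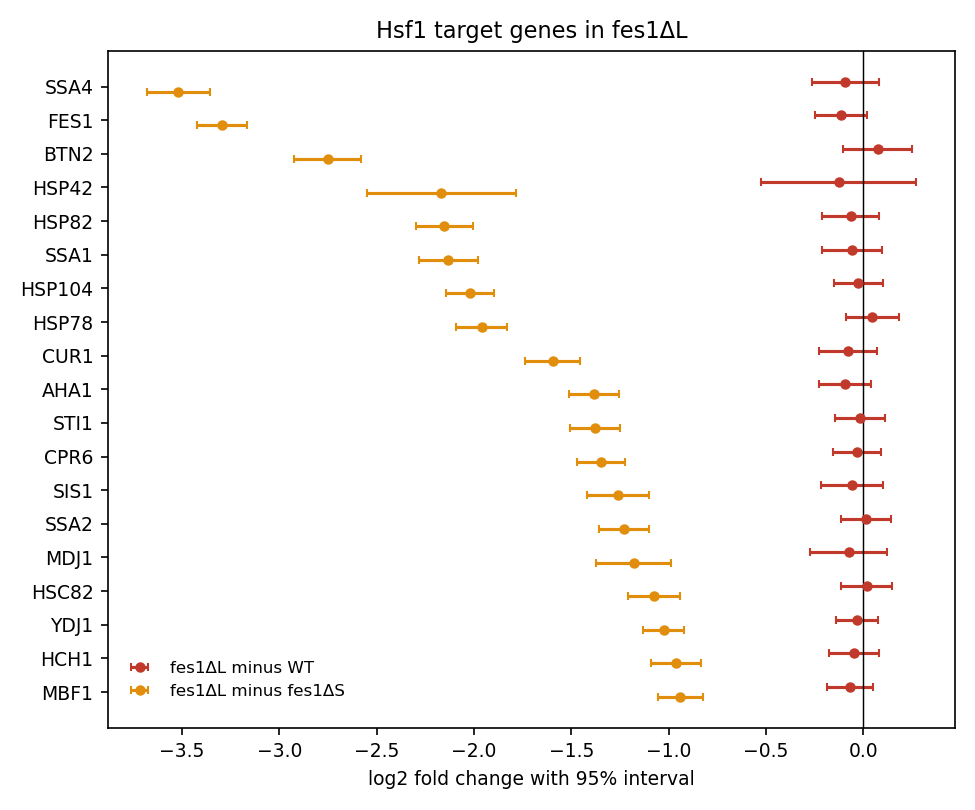
Log2 fold changes with 95% intervals of the 19 Hsf1 target genes in the fit over 12 libraries, in red for fes1ΔL minus WT and in orange for fes1ΔL minus fes1ΔS. All red intervals include 0 and span at most -0.52 to 0.27, and all orange intervals lie below 0, the one nearest to 0 ending at -0.83.

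The genes of the machinery that Fes1 works with differed little from WT. All 12 genes of cytosolic Hsp70s and their exchange factors lay within the 25% margin, and 0 were called. SSA1 and SSA2, the main cytosolic Hsp70 genes, had log2 fold changes of -0.06 (95% interval -0.21 to 0.09) and 0.01 (-0.11 to 0.14). The ribosome-bound Hsp70 genes SSB1 and SSB2 had 0.04 (-0.10 to 0.19) and 0.02 (-0.12 to 0.16). SSE1, another exchange factor of Hsp70, had 1478, 1511 and 1478 CPM in fes1ΔL and 1516, 1454 and 1460 CPM in WT, and its interval, -0.09 to 0.12, was among the narrowest. SSE2, its stress-induced relative, had -0.02 (-0.28 to 0.23), and SNL1, an exchange factor at the endoplasmic reticulum membrane, had -0.08 (-0.25 to 0.08).

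Other parts of protein quality control were bounded as tightly. Of 12 genes of Hsp90 and its cochaperones, 11 genes of J-domain proteins, 14 genes of the CCT chaperonin and prefoldin, 17 genes of folding in the endoplasmic reticulum and 33 proteasome genes, every one lay within the 25% margin and 0 were called. KAR2, the Hsp70 gene of the endoplasmic reticulum, had 931, 956 and 966 CPM in fes1ΔL and 969, 1011 and 902 CPM in WT (-0.01, 95% interval -0.15 to 0.12). RPN4, the regulator of proteasome genes, had -0.12 (-0.26 to 0.02), and the median over the 33 proteasome genes was -0.06. For 8 of the 33, all fes1ΔL libraries were below all WT libraries, as they were for 6.24% of all genes, and for 0 they were above. The lowest log2 fold change of the 33 was that of PRE6 at -0.13 (-0.31 to 0.04). Of 16 mitochondrial chaperone genes 15 lay within the 25% margin, and of 19 genes of ubiquitin-dependent quality control 16 did. All of both lists lay within 1.5-fold.

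The general stress genes, targets of Msn2 and Msn4, were bounded less well. Of 34, 0 were called and 0 had an unadjusted p under 0.05, against 4.06% of all genes. The interval lay within the 25% margin for 13, within 1.5-fold for 25 and within 2-fold for 32. SPI1, a cell wall protein gene, was the highest at 0.32 (95% interval -0.06 to 0.71). TPS1, which makes trehalose, had 0.01 (-0.19 to 0.21). Of 24 redox genes, 0 were called and 3 had an unadjusted p under 0.05 (4.06% of all genes had), with 22 within 1.5-fold. TSA1, the main peroxiredoxin gene, had 1826, 1675 and 1792 CPM in fes1ΔL and 2312, 1921 and 2015 CPM in WT. These did not overlap, and the gene was not called (-0.24, -0.38 to -0.10, adjusted p = 0.984). TSA1 also stood below WT in fes1ΔS (1540 to 1610 CPM) and in the libraries labelled fes1Δ (1498 to 1710 CPM). TRX2, a thioredoxin gene, had -0.31 (-0.56 to -0.06, adjusted p = 0.984).

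Of 25 iron uptake genes, 0 were called, 12 lay within the 25% margin and all 25 within 2-fold. FET3, the multicopper oxidase gene of high-affinity uptake, had 1233, 1148 and 1137 CPM in fes1ΔL and 1118, 1114 and 1202 CPM in WT (0.03, 95% interval -0.21 to 0.28). HMX1, the heme oxygenase gene, was the lowest at -0.47 (-0.78 to -0.16, adjusted p = 0.984), with libraries that overlapped. Against fes1ΔS, 11 of the 25 were higher in fes1ΔL, where 2.06% of all genes were, FET3 among them (0.85, adjusted p = 0.000408).

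For growth-related and metabolic genes, most members of each list below lay within the 25% margin, where 76.2% of all genes tested did. That share depends on level: it was 94.9% from 100 to 1000 CPM and 96.0% at 1000 CPM or more. The lists were not set against genes of like level, so their counts do not show that they are steadier than other genes. All 137 ribosomal protein genes lay within 1.5-fold and 130 within the 25% margin, with 0 called and a median log2 fold change of -0.01. The fes1ΔL libraries lay wholly below WT for 12 of the 137 (6.24% of all genes) and wholly above for 3 (4.98% of all genes). The lowest log2 fold change was that of RPL31A, at 1170, 1145 and 1170 CPM in fes1ΔL and 1330, 1379 and 1307 CPM in WT, which did not overlap (-0.20, 95% interval -0.32 to -0.09, adjusted p = 0.932). RPL31A stood at 1115 to 1233 CPM in fes1ΔS and 1187 to 1307 CPM in the libraries labelled fes1Δ. Of 19 glycolysis and fermentation genes, 17 lay within the 25% margin. TDH3, the main glyceraldehyde-3-phosphate dehydrogenase gene, had 24554, 22257 and 23936 CPM in fes1ΔL and 25478, 22221 and 24161 CPM in WT (-0.02, -0.15 to 0.10). Of 40 genes of the TCA cycle and respiration, 30 lay within the 25% margin and all 40 within 2-fold, and CYC1, a cytochrome c gene, was the lowest at -0.53 (-0.89 to -0.17, adjusted p = 0.984). Of 24 ergosterol genes 22 lay within the 25% margin, as did 27 of 31 amino acid synthesis genes. In these lists too, 0 were called.

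Genes often used as references gave the finest check. The 10 tested ones all lay within 1.16-fold. ACT1, the actin gene, had 2513, 2558 and 2556 CPM in fes1ΔL and 2661, 2518 and 2461 CPM in WT (0.00, 95% interval -0.12 to 0.11). TUB1, a tubulin gene, had 0.00 (-0.11 to 0.10), and ALG9 had 0.02 (-0.10 to 0.14). Of the auxotrophic and other selection markers, URA3 had 0 counts in all 3 fes1ΔL libraries and 0, 1 and 0 counts in WT, which allows at most 3 counts or 0.303 to 0.323 CPM in a fes1ΔL library, and LEU2 had 0 counts in all 6. This floor covers counting error only. Of the 8 tested markers, 0 were called and 6 lay within the 25% margin, HIS3, TRP1 and LYS2 among them. URA3 is among the 8 only through its counts in the libraries labelled fes1Δ, so its missing call is no result. MET17 was the lowest at -0.15 (95% interval -0.33 to 0.03), with libraries that overlapped.

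**Figure D5:**
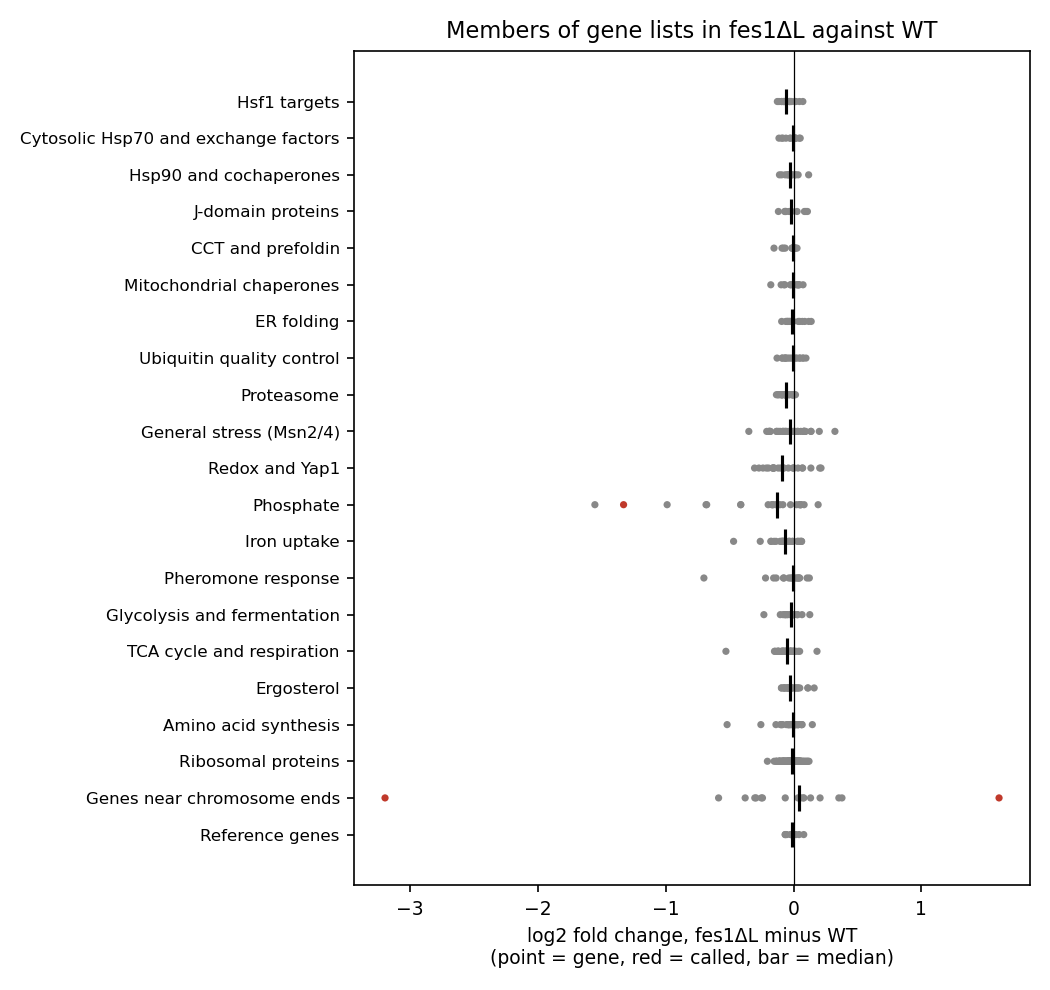
Log2 fold change of fes1ΔL minus WT for the members of 21 gene lists. Each point is a gene (red where called), and the black bar is the median of the list. The chaperone and proteasome lists lie within about 0.2 of 0, the phosphate list reaches -1.55 at PHO84, and the genes near chromosome ends run from -3.20 to 1.61.

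The 10 uncalled protein-coding genes with the smallest p were YIR042C, PHO11, COS1, RFA3, RIM15, YPR063C, PDE2, RPL31A, SWC5 and TSA1. YIR042C, which has only its systematic name in RefSeq's table, had 9.91, 14.7 and 12.1 CPM in fes1ΔL and 5.97, 5.74 and 7.69 CPM in WT (0.93, 95% interval 0.53 to 1.33, adjusted p = 0.109). It was called by DESeq2 (adjusted p = 0.00848), and in edgeR without fes1ΔL replicate 1 (adjusted p = 0.0350). Its levels in fes1ΔS, 12.5 to 17.9 CPM, overlapped those of fes1ΔL. RFA3, a subunit gene of the single-strand DNA binding complex RPA, had -0.33 (-0.49 to -0.17, adjusted p = 0.238). RIM15, a kinase gene of entry into stationary phase, had 0.24 (0.12 to 0.37), and PDE2, the high-affinity cyclic AMP phosphodiesterase gene, had 0.20 (0.09 to 0.32).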

How the data were processed

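Poly(A)-selected, strand-marked RNA libraries were sequenced by the authors, per the labels' protocols. The authors deposited raw counts per gene for 12 libraries grown at 25 °C, and FPKM values for the same libraries. The submitters' processing notes name Cufflinks 2.1.1, TopHat2 2.0.4, HTSeq 0.6.1, Picard 1.29, CASAVA, bcl2fastq 1.8.3 and the build sacCer2, without roles. RefSeq R64 is another build, so it served for names and neighbours only (6048 of 7130 identifiers found), and no coordinates or sequences are given.

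Groups came from the labels. Counts of the 12 libraries were fitted in edgeR 4.0.16 (R 4.3.3) by a robust quasi-likelihood fit with TMM scaling, the default filter by group and strain as the only term, with Benjamini-Hochberg adjustment over 5719 genes. The 95% intervals came from the t distribution and SEs computed from the fitted means and the fit's estimates of spread. In these SEs each library's variance was held at or above that of counting error. Equivalence came from a pair of one-sided tests per gene. Replicates of a strain differed by more than counting error (chi-square over its degrees of freedom 2.60 to 14.7), so each library counts as 1 sample. Total counts ran from 7608550 to 10246711. The script was tested on simulated counts.

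Members, gene lists and the rule for named genes were chosen with earlier results of these data known. The rule takes called genes, the neighbours of FES1, the 10 uncalled protein-coding genes with the smallest p and at least 10 CPM in a group, the extremes and the 4 highest genes of each list, all members of short lists, and the 5 narrowest intervals. REP1, REP2 and FLP1 of the 2-micron plasmid, NCE103, YRF1-5, YGR038C-B, YBL111C and YHR218W were chosen after their values were seen. Another gene is not reported here.

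Alternatives were RLE factors, no filter, DESeq2 1.42.0, fitting the compared groups alone, a replicate block, a fit that is not robust, SEs from the F statistic, each library left out, and limma 3.58.1 on log2(FPKM + 1) and log2(FPKM + 0.1). Leaving out fes1ΔS or fes1Δ libraries for fes1ΔL against WT was added after seeing the data. Of the FPKM genes, 3629 have 1 value per library and were used, and 3501 have 24 values for 12 names and were not. In the deposited data 12 columns match no sample's label, so heat-shocked cells were not analysed here.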

Additional observations from a re-analysis of the deposited data

How the results depend on the processing

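The count of 4 genes called between fes1ΔL and WT was 3 to 5 under RLE factors, no filter, DESeq2, the replicate block, the fit that is not robust and FPKM. It was 10 when only the groups compared were fitted, 11 without the libraries labelled fes1Δ and 3 to 9 when single libraries were left out (9 without fes1Δ replicate 3). The added calls were the phosphate and plasmid genes given above, with RFA3, COS1 or YIR042C. These fits estimate the spread from fewer libraries, and the cause was not tested. YBL113C was called under every alternative, YLR466C-B under all count-based ones, and YBR099C and PHO89 were not called on FPKM (adjusted p = 0.988 and 0.471). FPKM called 3 of 2819 genes, YBL113C, YBL111C and YHR218W, and 98 had an unadjusted p under 0.05. On counts YHR218W had 0 in all 6 libraries.

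Against fes1ΔS, 276 genes were called, and 464 when only these groups were fitted. Against the libraries labelled fes1Δ, 544 were called, and 354 to 576 with single libraries left out. Replicate numbers were not taken as pairs in the main fit, and whether they pair the samples was not settled. Same-numbered libraries of fes1ΔL and WT correlated at 0.404, 0.297 and 0.0528 in their deviations. Replicates 1 and 2 of fes1ΔL each correlated best with the WT library of the same number, and fes1ΔL replicate 3 correlated best with WT replicate 2 (0.183). With the replicate block 5 genes were called.

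Over 243 named genes in fes1ΔL against WT, 12 changed their call under some alternative, and none reversed direction under a call. Counts of genes within the 25% margin ran from 3868 to 4457. Intervals were widest for genes under 10 CPM, and how much of that is counting error was not tested.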
